A study of Mus musculus with 8 samples.

Results

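The 9 genes described here encode complement components and regulators other than the C1q chains: C1ra, C1s1, C2, C4b, C3, Cfb, Cfp, Serping1 and C3ar1. They were taken by symbol from a table of 50462 gene identifiers, and all 9 were found and tested. The table holds 8 RNA-seq libraries of medial knee cartilage caps, each from a single male C57BL/6J mouse. All 8 mice are labelled as wild-type controls and the cells as chondrocytes. The 4 naïve mice were sampled at 11 weeks of age without an operation (day 0). The 4 DMM mice had the medial meniscus of the left knee destabilised by cutting its ligament (DMM, a surgical model of post-traumatic osteoarthritis) at the same age, and their cartilage was taken 42 days later, at 17 weeks. Mice with sham surgery were not analysed here, and an effect of surgery cannot be told apart from one of the 6 weeks of age between the groups. The comparison asks how transcripts of the complement system stand in cartilage of a destabilised joint.

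Complement is a cascade of plasma and tissue proteins that marks microbes, dying cells and damaged matrix. In the classical pathway, C1q binds a surface, and the serine protease C1r then activates the serine protease C1s. C1s cuts C4 and C2 into a convertase that cuts C3. In the alternative pathway, factor D cuts factor B bound to the C3 fragment C3b, which gives a second C3 convertase that properdin stabilises. Fragments of C3 coat surfaces and signal through receptors such as C3aR, while C1 inhibitor, other soluble proteins and membrane proteins hold the cascade back. The liver makes most plasma complement, but stromal cells, macrophages, neutrophils and chondrocytes also transcribe several components.

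At day 42, transcripts of the classical pathway protease C1s1 and of its inhibitor Serping1 were higher than in naïve cartilage, and those of C3, the protein on which the pathways converge, were lower. C1s1 rose 2.003-fold, Serping1 rose 1.77-fold, and C3 fell by 39.1%. A gene was called at a DESeq2 adjusted p of 0.05 or less, adjusted over all genes tested, and a change of 1.5-fold or more. By this rule 3 of the 9 members were called, 2 higher and 1 lower, where 13.7% of the 17760 genes tested were called (7.75% higher and 5.92% lower). Cfp had an adjusted p under 0.05 but a change under 1.5-fold, which makes 4 of 9 by adjusted p alone against 22.6% of all genes. The naïve and DMM values did not overlap for 3 members, C1s1, C3 and Cfp, and for 22.2% of all genes. The median log2 fold change was 0.38 over the members and -0.02 over all genes tested. The count of called members depended on single libraries. Without naïve 4 it was 5, with C1ra and C4b added, without DMM 4 it was 6, with C1ra, C4b and Cfb added, and without DMM 3 it was 2, with Serping1 lost. With libraries scaled by their total count, C1ra and C4b were also called higher and C3 was no longer called.

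**Figure D1:**
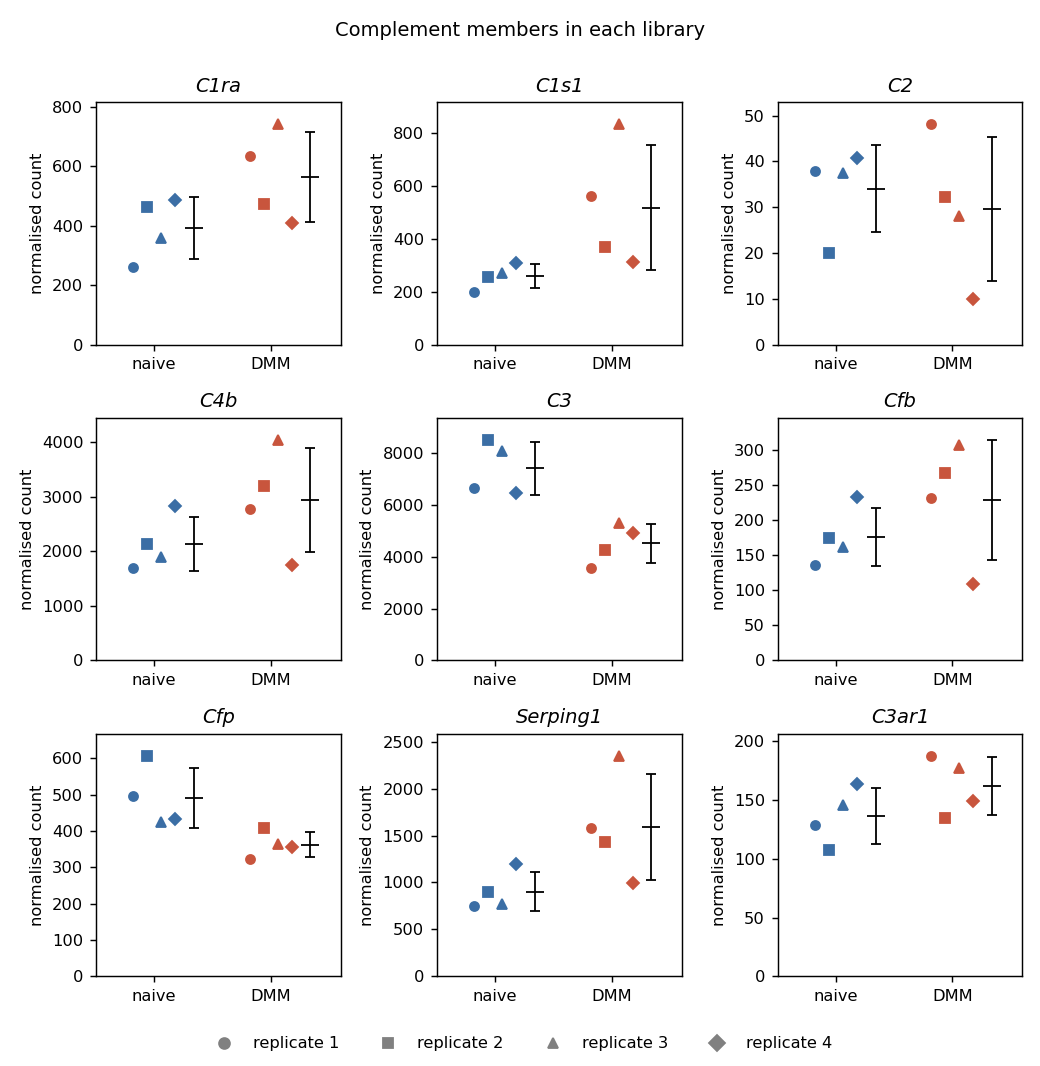
Normalised count (counts divided by a library size factor; linear axes from 0) of each member in the 4 naïve and 4 DMM libraries, with the mean and SD of each group as a bar beside the points and 1 symbol shape per replicate number. C3 and Cfp are lower in every DMM library than in any naïve library, C1s1 is higher, and DMM 4 is the lowest DMM library in 6 panels.

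The promoter windows of the members that passed at an adjusted p of 0.05 and have an entry in the table of RefSeq promoters are shown for reference to where these transcripts begin. Each line gives the 250 bases before the RefSeq start on GRCm38.p6, read 5′ to 3′ on the gene's strand. Capitals mark matches, on either strand, to 2 of 4 motifs that were searched. They are a C/EBP core (TTNNGNAA) and an NF-kB-like motif (GGGNNTNNCC), and no 2 matches shown overlap except that the last C/EBP core of C3 reads on both strands. C1s1 lies on the minus strand at chr6:124542360-124542609, C3 on the minus strand at chr17:57228137-57228386 and Cfp on the minus strand at chrX:20931556-20931805.

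C1s1: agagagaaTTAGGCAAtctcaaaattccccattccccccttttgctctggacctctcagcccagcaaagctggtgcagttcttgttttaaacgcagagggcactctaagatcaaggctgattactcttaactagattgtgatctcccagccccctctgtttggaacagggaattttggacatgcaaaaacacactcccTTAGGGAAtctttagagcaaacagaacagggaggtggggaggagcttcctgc

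C3: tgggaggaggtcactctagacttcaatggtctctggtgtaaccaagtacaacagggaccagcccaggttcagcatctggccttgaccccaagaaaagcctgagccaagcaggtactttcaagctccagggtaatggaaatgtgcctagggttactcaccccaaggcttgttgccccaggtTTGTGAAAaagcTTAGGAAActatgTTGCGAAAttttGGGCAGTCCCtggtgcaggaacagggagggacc

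Cfp: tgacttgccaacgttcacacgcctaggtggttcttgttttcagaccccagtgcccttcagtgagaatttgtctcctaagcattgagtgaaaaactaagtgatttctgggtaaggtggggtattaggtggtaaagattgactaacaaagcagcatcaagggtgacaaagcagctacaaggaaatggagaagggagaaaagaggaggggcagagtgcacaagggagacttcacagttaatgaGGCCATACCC

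The C3 window held C/EBP core matches that began 70, 58 and 45 bases before the start and an NF-kB-like match that began 33 bases before it. The C1s1 window held the C/EBP core 242 and 52 bases before the start, and the Cfp window held the NF-kB-like letters 10 bases before it. No window of these 3 held a GAS motif (TTCNNNGAA) or an ISRE core (GAAANNGAAA). The C/EBP core is common, with a match in 36.8% of all 32851 windows in the table, and 15.9% held the NF-kB-like motif, 7.02% the GAS motif and 2.98% the ISRE core. The motif letters are read as letters only, and their part in the changes of these transcripts was not tested. The table has 5 of the 9 members. C1ra and C3ar1 are among them and are not printed, since neither had an adjusted p of 0.05 or less. C2, C4b, Cfb and Serping1 have no entry.

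C1ra and C1s1 encode the proteases of the C1 complex and are neighbours on chromosome 6, 6901 bases apart in the GENCODE vM21 annotation of GRCm38. C1ra is at chr6:124512405-124523443 on the plus strand and C1s1 at chr6:124530345-124542359 on the minus strand. C1s1 had normalised counts of 200.5, 256.8, 270.8 and 307.3 in naïve libraries and 560.6, 367.6, 832.3 and 310.5 in DMM libraries 1 to 4. All DMM values lay above all naïve values, although DMM 4 lay only just above naïve 4. The means were 258.8 ± 44.3 and 517.7 ± 235.4 (SD, n = 4 per group), and the log2 fold change was 1.002 with an SE of 0.27 (adjusted p = 0.00266 by DESeq2). Leaving out any 1 of the 8 libraries kept C1s1 called.

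C1ra had normalised counts of 262.9, 463.0, 357.5 and 488.7 in naïve and 634.4, 473.0, 741.7 and 407.9 in DMM libraries. The groups overlapped, since DMM 2 and DMM 4 lay within the naïve range. Its log2 fold change was 0.52 with an SE of 0.23 (95% interval 0.07 to 0.98, adjusted p = 0.0857 by DESeq2), so it was not called. Without naïve 4 the log2 fold change was 0.65 (adjusted p = 0.0309 by DESeq2) and without DMM 4 it was 0.65 (adjusted p = 0.0259 by DESeq2), both past the thresholds. A ratio of the estimated counts of 2 genes within a library does not depend on the size factor. The ratios given here were chosen after the values were seen and were not tested. C1s1 per C1ra was 0.68 ± 0.10 in naïve and 0.89 ± 0.17 in DMM libraries (SD, n = 4 per group), with no overlap between 0.55 to 0.76 and 0.76 to 1.12, whose nearest values were 0.761 and 0.762.

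Serping1 encodes C1 inhibitor, which inactivates C1r and C1s, and lies on chromosome 2 (chr2:84765387-84775444, minus strand). Its normalised counts were 748.4, 900.7, 766.3 and 1192.8 in naïve and 1583.1, 1436.2, 2348.6 and 999.1 in DMM libraries. Libraries DMM 1, DMM 2 and DMM 3 lay above every naïve library, and DMM 4 lay below naïve 4. The means were 902.0 ± 205.4 and 1591.8 ± 562.2 (SD, n = 4 per group), and the log2 fold change was 0.82 with an SE of 0.24 (adjusted p = 0.00459 by DESeq2). Serping1 stayed called in 7 of 8 fits with 1 library removed. Without DMM 3, its highest library, the log2 fold change was 0.57 (adjusted p = 0.0282 by DESeq2), just under the fold threshold.

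The proportion of inhibitor to protease transcripts overlapped between the groups. Serping1 per C1s1 was 3.49 ± 0.47 in naïve and 3.19 ± 0.51 in DMM libraries (SD, n = 4 per group). The 3 C1q chains, which encode the recognition part of the same complex and are not members, showed log2 fold changes of 0.00 (C1qa), -0.18 (C1qb) and -0.07 (C1qc). None of them was called, with DESeq2 adjusted p between 0.630 and 0.992, and the signs of C1qa and C1qc turned in some fits with 1 library removed, and that of C1qc also with total count factors (0.10). The 95% intervals of these changes ran from -0.62 to 0.33. Whether the changes of C1s1 and C1q differ was not tested.

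Fibroblast markers differed among themselves in direction. Of the 9 genes listed as synovial fibroblast markers, 3 (Pdpn, Thy1 and Pdgfra) were called higher in DMM and none lower, none was at 0, and the list took 0.202 to 0.704% of the counts in naïve and 0.217 to 0.393% in DMM libraries (two-sided exact permutation p = 0.657). Prg4, the lubricin gene, held most of that share, so the share and its test mainly reflect this 1 gene. It was 30378 to 96845 normalised counts in naïve and 24672 to 48057 in DMM libraries. Pdgfra, a receptor of fibroblasts and other stromal cells, had normalised counts of 1112.4, 1294.4, 1445.9 and 1748.4 in naïve and 2367.7, 1998.4, 2491.0 and 1752.7 in DMM libraries. Its highest and lowest DMM libraries were DMM 3 and DMM 4, as for C1ra, C1s1 and Serping1, whereas Thy1 and Pdpn were highest in DMM 3 and lowest in DMM 2. Pi16, another gene of the list, went the other way, with 420.7 to 505.5 normalised counts in naïve and 341.6 to 365.5 in DMM libraries (adjusted p = 0.00966 by DESeq2, under 1.5-fold). Pdgfra and Pi16 were singled out after their values were seen. Serping1 per Pdgfra was 0.65 ± 0.08 in naïve and 0.73 ± 0.16 in DMM libraries (SD, n = 4 per group), and C1s1 per Pdgfra was 0.19 ± 0.01 and 0.23 ± 0.07, with overlap for both. The part of fibroblast transcripts in the rise of C1s1 and Serping1 was not tested. In bulk tissue, fewer cells of a type and less RNA per cell cannot be told apart.

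**Figure D2:**
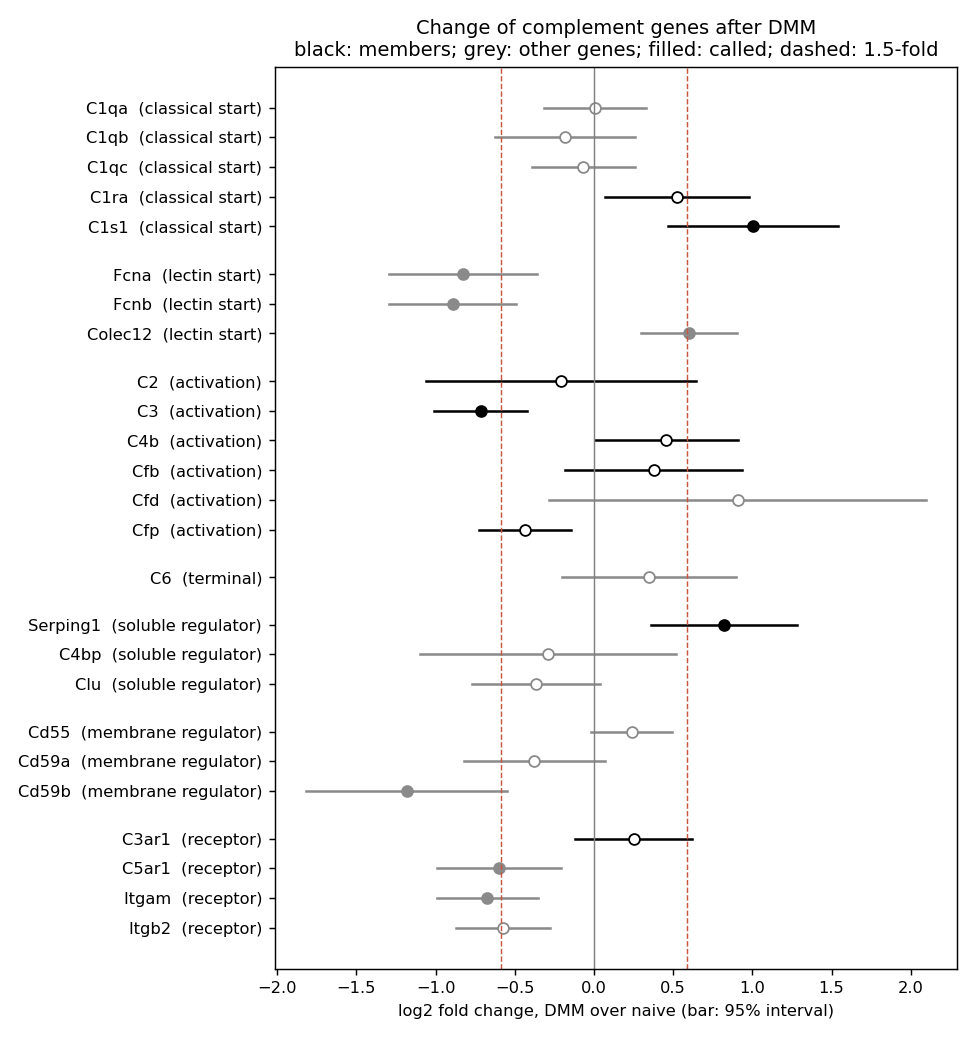
Log2 fold change of DMM over naïve (x axis) with its 95% interval for the 9 members (black) and the named other complement genes (grey), grouped by role, where filled points were called and dashed lines mark 1.5-fold. C1s1 and Serping1 lie to the right at 1.002 and 0.82, C3 lies to the left at -0.72, and the C1q chains lie within 0.2 of 0.

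C4b, C2, Cfb and C3 encode the proteins from which the C3 convertases are built. C2, C4b and Cfb sit in the major histocompatibility region of chromosome 17, with 85 bases between Cfb and C2 and 112491 bases between C4b and Cfb. C3 lies further along the same chromosome (chr17:57203970-57228136, minus strand). Its normalised counts were 6646.5, 8513.0, 8093.3 and 6469.7 in naïve and 3580.1, 4262.3, 5323.7 and 4926.0 in DMM libraries. The groups did not overlap, and the highest DMM library lay below the lowest naïve one. The means were 7430.6 ± 1024.5 and 4523.0 ± 766.1 (SD, n = 4 per group), and the log2 fold change was -0.72 with an SE of 0.15 (adjusted p = 5.1e-05 by DESeq2), and C3 stayed called whichever of the 8 libraries was removed. When libraries were scaled by their total count instead, the median log2 fold change over genes averaging 10 or more normalised counts moved from -0.01 to 0.14. Over all genes, 2030 were then called higher and 489 lower, against 1377 and 1052 as reported. The log2 fold change of C3 was then -0.56 (adjusted p = 0.000986 by DESeq2), which is under 1.5-fold and leaves C3 uncalled.

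C4b, the mouse C4 gene (chr17:34728380-34743882, minus strand), had normalised counts of 1699.0, 2136.6, 1902.9 and 2838.0 in naïve and 2772.4, 3208.8, 4040.3 and 1751.8 in DMM libraries. Naïve 4 lay within the range of the other DMM libraries, and DMM 4 lay within the range of the other naïve libraries. Its log2 fold change was 0.46 with an SE of 0.23 (95% interval 0.00 to 0.91, adjusted p = 0.147 by DESeq2), and it was not called. It was called without naïve 4 at 0.62 (adjusted p = 0.0287 by DESeq2), without DMM 4 at 0.64 (adjusted p = 0.00759 by DESeq2), and with libraries scaled by total count at 0.61 (adjusted p = 0.0388 by DESeq2).

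Cfb, the protease of the alternative C3 convertase (chr17:34856374-34862518, minus strand), had 136.3, 174.3, 161.6 and 233.6 normalised counts in naïve and 231.4, 267.7, 307.1 and 109.2 in DMM libraries. DMM 4 was the lowest of all 8 libraries and DMM 3 the highest. The log2 fold change was 0.38 with an SE of 0.28 (95% interval -0.18 to 0.93, adjusted p = 0.380 by DESeq2), and without DMM 4 it was 0.61 (adjusted p = 0.0241 by DESeq2), past both thresholds. C4b and Cfb put the libraries of each group in the same order, 4, 2, 3 and 1 in naïve and 3, 2, 1 and 4 in DMM from highest to lowest. The ratio of C4b to Cfb was 12.2 ± 0.29 in naïve libraries, with values from 11.8 to 12.5, and 13.3 ± 1.93 in DMM libraries (SD, n = 4 per group), where DMM 4 stood highest at 16.1.

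Fat cell transcripts shared the outermost libraries of C4b and Cfb in part. The adipocyte list took 0.031, 0.020, 0.024 and 0.042% of the counts in naïve and 0.048, 0.082, 0.050 and 0.024% in DMM libraries (two-sided exact permutation p = 0.143). None of its 8 genes was called and none was at 0 in every library. Naïve 4 was the highest naïve library and DMM 4 the lowest DMM library for this list, as for C4b and Cfb, while DMM 2 rather than DMM 3 was its highest DMM library. The list includes Cfd, which encodes factor D and is a classic fat cell product. Cfd had 466.1, 268.7, 411.0 and 986.4 normalised counts in naïve and 1069.8, 1764.1, 865.2 and 302.3 in DMM libraries, and the log2 fold change was 0.91 with an SE of 0.61 (adjusted p = 0.307 by DESeq2). Whether fat in the dissected caps bears on C4b and Cfb was not tested.

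C2, which supplies the protease of the classical convertase (chr17:34862604-34898265, minus strand), was the least abundant member, with 37.8, 19.96, 37.5 and 40.8 normalised counts in naïve and 48.1, 32.2, 28.0 and 9.93 in DMM libraries. Naïve 2 and DMM 4 stood low in their groups. The log2 fold change was -0.21 with an SE of 0.43 (95% interval -1.06 to 0.65, adjusted p = 0.798 by DESeq2), which gives no direction. Both C2 and Cfb share sequence with Gm20547, a gene model that runs through both loci. Of the 31-base words in their transcripts, 44.4% of those of C2 and 75.5% of those of Cfb also occurred in another gene. Gm20547 was listed at 0, 26.6, 0 and 2.27 normalised counts in naïve and 0, 21.5, 9.06 and 20.8 in DMM libraries, so it was high in naïve 2 and DMM 4, where C2 was lowest, and in DMM 2. The sum of C2 and Gm20547 was 41.2 ± 4.39 in naïve and 42.4 ± 10.4 in DMM libraries (SD, n = 4 per group). With C2, Cfb and Gm20547 summed before the fit, the log2 fold change was 0.32 (adjusted p = 0.421 by DESeq2). Cfb, at 0.38 by itself, held most of this sum, so the value gives no direction for C2.

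C4b, C1ra and C1s1 also have near copies. C4a, the sex-limited copy of C4b, had a mean of 8.90 normalised counts in naïve and 15.3 in DMM libraries, far below C4b. C1rb was at most 5.67 and C1s2 at most 8.23 normalised counts. Shared words made up 48.3% of those of C4b, 59.6% of those of C1ra and 47.6% of those of C1s1, so the division of reads between copies, and with it the low counts of the copies, is uncertain. Adding each copy to its member changed no call among C1ra, C1s1 and C4b. C3, Cfp and Serping1 shared no words with other genes, and C3ar1 shared 0.49%.

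Cfp encodes properdin, which neutrophils and monocytes store and which stabilises the alternative convertase (chrX:20925454-20931555, minus strand). Its normalised counts were 497.7, 606.6, 426.0 and 433.1 in naïve and 323.4, 407.4, 364.7 and 354.7 in DMM libraries. Every DMM library lay below every naïve library. The means were 490.9 ± 83.7 and 362.6 ± 34.7 (SD, n = 4 per group), and the log2 fold change was -0.44 with an SE of 0.15 (adjusted p = 0.0197 by DESeq2), which is under 1.5-fold and was not called. With libraries scaled by total count it was -0.27 (adjusted p = 0.114 by DESeq2), and it lost its adjusted p of 0.05 or less without naïve 1, naïve 2, DMM 1 or DMM 4 (adjusted p = 0.0750, 0.101, 0.0894 and 0.0552 by DESeq2).

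C3ar1 encodes the receptor for the C3a fragment, found on macrophages and other myeloid cells (chr6:122847138-122856161, minus strand). It had 128.4, 107.8, 145.6 and 163.3 normalised counts in naïve and 187.4, 134.4, 177.0 and 148.9 in DMM libraries. The groups overlapped over most of their range. The log2 fold change was 0.25 with an SE of 0.19 (95% interval -0.12 to 0.62, adjusted p = 0.376 by DESeq2), so a fall of more than 0.12 or a rise of more than 0.62 lay outside the interval. Relative to Csf1r, a receptor gene listed here as a macrophage marker, C3ar1 was 0.066 ± 0.013 in naïve and 0.068 ± 0.012 in DMM libraries (SD, n = 4 per group).

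C3 was called lower after DMM, and Cfp was lower in every DMM library without being called. Markers of neutrophils were also lower, while those of macrophages differed among themselves. The neutrophil list took 0.893 to 1.25% of the counts in naïve and 0.421 to 0.889% in DMM libraries (two-sided exact permutation p = 0.0286, the smallest that 4 against 4 can give, and 0.114 after adjustment over the 12 marker lists). Of its 10 genes 9 were called lower, none was called higher and none was at 0. The macrophage list took 0.192 to 0.224% in naïve and 0.158 to 0.196% in DMM libraries (two-sided exact permutation p = 0.0857, adjusted p = 0.171), with 2 of its 12 genes called lower, none higher and none at 0. Lyz2, a gene of myeloid cells more widely, held most of that share, so the share mainly follows this 1 gene. It was 17055 to 24947 normalised counts in naïve and 11013 to 16254 in DMM libraries. Csf1r went the other way, with 1848.3 to 2310.8 normalised counts in naïve and 2128.2 to 2856.1 in DMM libraries. S100a9, an abundant neutrophil transcript, was 29353 to 49057 normalised counts in naïve and 13368 to 28403 in DMM libraries.

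Set against the genes of these lists within each library, C3 per gene overlapped between the groups for all 10 neutrophil genes and for 7 of the 12 macrophage genes. For the other 5 macrophage genes (Adgre1, Csf1r, Cd68, Fcgr1 and C1qa) the ratio was lower in every DMM library. C3 per Csf1r was 2.80 to 4.38 in naïve and 1.25 to 2.50 in DMM libraries, and C3 per Cd68 was 10.8 to 14.4 and 6.01 to 7.96. C3 per Itgam, the gene of the alpha chain of the C3 fragment receptor CR3, was 1.27, 1.49, 1.61 and 1.61 in naïve and 1.44, 1.57, 1.51 and 1.30 in DMM libraries. The means were 1.49 ± 0.16 and 1.45 ± 0.12 (SD, n = 4 per group), and the groups overlapped. C3 per Lyz2, the myeloid lysozyme gene, was 0.36 ± 0.03 in naïve and 0.33 ± 0.02 in DMM libraries, and C3 per S100a9 was 0.19 ± 0.02 and 0.22 ± 0.04 (SD, n = 4 per group), again with overlap. Cfp per Itgam was 0.098 ± 0.011 and 0.119 ± 0.026 (SD, n = 4 per group). C3 per C4b was 3.91, 3.98, 4.25 and 2.28 in naïve and 1.29, 1.33, 1.32 and 2.81 in DMM libraries, so naïve 4 and DMM 4 were each nearest to the other group. The part of myeloid transcripts in the lower values of C3 and Cfp was not tested.

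**Figure D3:**
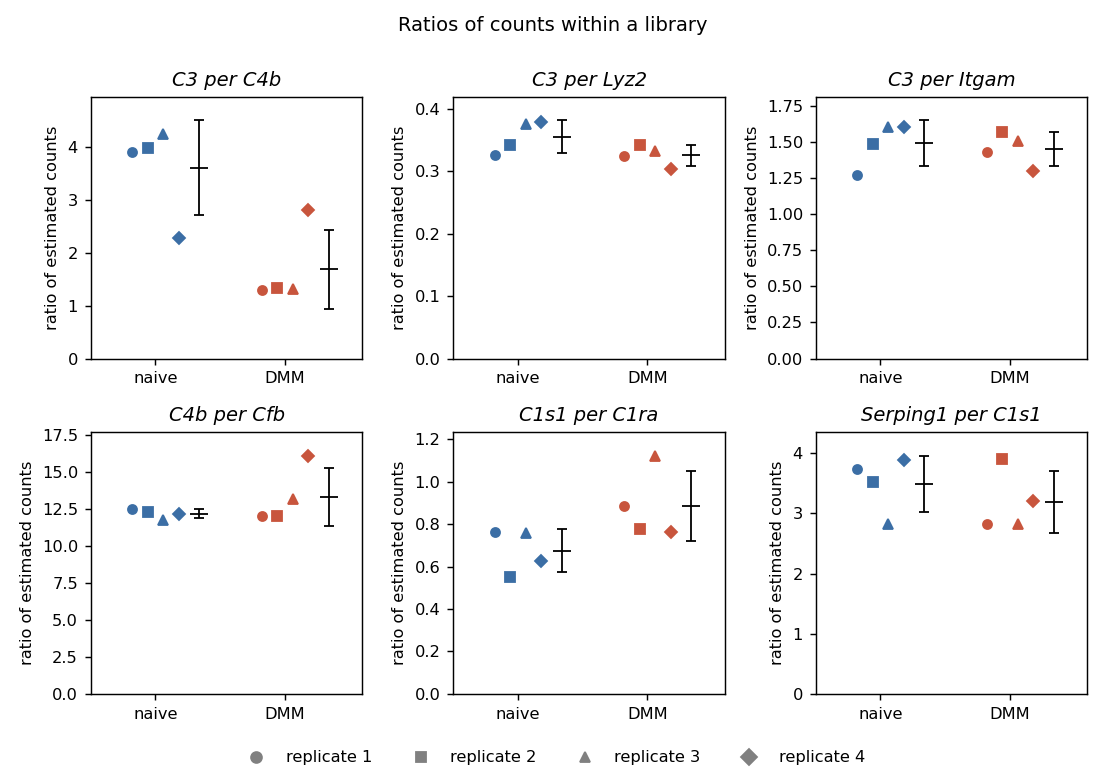
Ratio of estimated counts of 2 genes in each library (linear axes from 0), with the mean and SD of each group beside the points and 1 symbol shape per replicate number. C3 per Lyz2 overlaps between the groups, C3 per Itgam lies between 1.27 and 1.61 in all 8 libraries, and C4b per Cfb lies between 11.8 and 13.1 in every library but DMM 4.

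Levels between genes were compared per length, as normalised counts per kilobase of the longest coding transcript. In naïve cartilage C3 stood first at 1447 ± 199 (SD, n = 4), above Serping1 at 510.2 ± 116 with no overlap of the ranges. Serping1 overlapped with C4b at 398.6 ± 92.2, and C4b overlapped with Cfp at 300.0 ± 51.1, while Cfp lay above C1ra with no overlap. Then came C1ra at 131.8 ± 34.8, C1s1 at 87.9 ± 15.0 and Cfb at 64.5 ± 15.1 with overlapping ranges, followed by C3ar1 at 31.6 ± 5.51 and C2 at 12.9 ± 3.59. In DMM cartilage Serping1 at 900.3 ± 318, C3 at 880.7 ± 149 and C4b at 547.2 ± 177 overlapped at the top (SD, n = 4 per gene). C1ra at 189.3, C1s1 at 175.7, Cfb at 83.6 and C3ar1 at 37.6 normalised counts per kilobase followed Cfp at 221.6, and each overlapped with its neighbour in this order. C2 was last at 11.2. With all exons of a gene as the length, C3 stayed first in DMM, since the exons of Serping1 together are longer than its longest coding transcript.

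**Figure D4:**
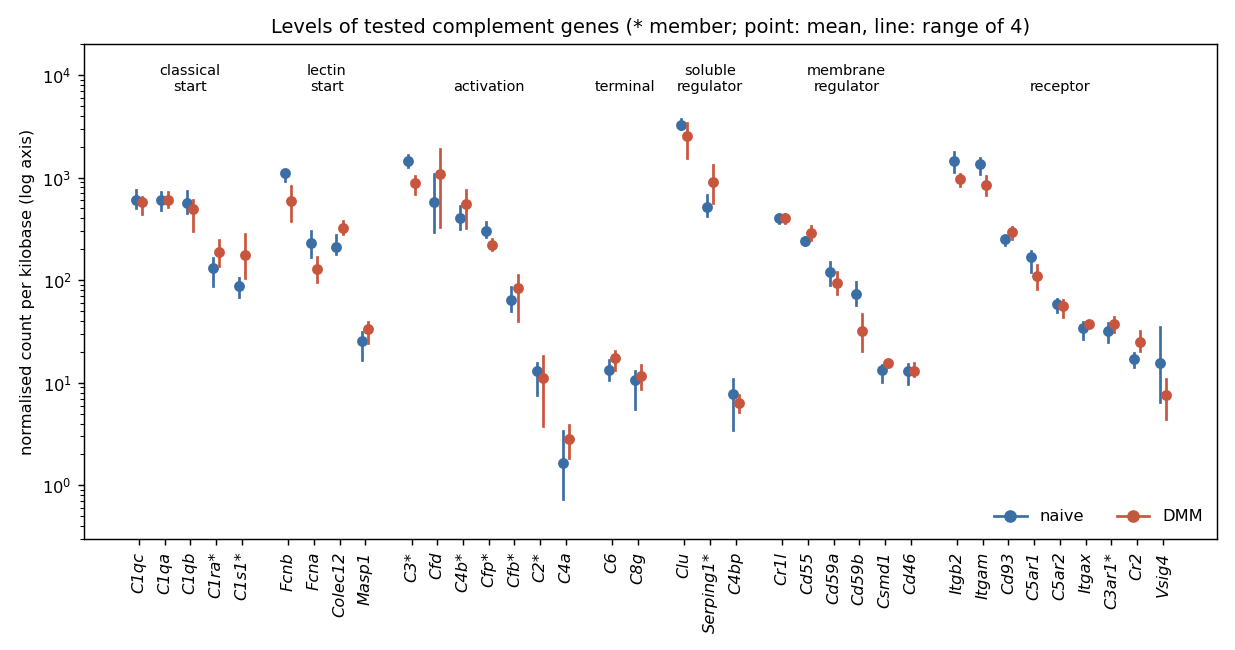
Normalised count per kilobase of the longest coding transcript (log axis) for tested genes of the wider complement list by role, with the mean as a point and the range of the 4 libraries as a line. C3 is the highest member in naïve libraries at 1447, Serping1 and C3 overlap in DMM libraries, and C2 is the lowest member in both groups.

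The wider complement list, which includes the members, has 58 genes, of which 37 were tested. In it 3 genes were called higher (C1s1, Serping1 and Colec12) and 6 lower (C3, Fcna, Fcnb, Cd59b, Itgam and C5ar1), where 13.7% of all genes tested were called, 7.75% higher and 5.92% lower. The median log2 fold change of the 37 was 0.01. Without the members, 6 of 28 tested genes were called (21.4%, against 13.7% of all genes), 1 higher and 5 lower. Of the 21 genes that were not tested, 16 had no more than 10 counts in any library.

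At the start of the lectin pathway, 3 of 4 tested genes were called, beside 13.7% of all genes. Fcna and Fcnb, which encode the ficolins, fell by 0.83 (adjusted p = 0.00465 by DESeq2) and 0.89 (adjusted p = 0.000255 by DESeq2) on the log2 scale, and neither overlapped between groups. Fcnb is a product of the neutrophil lineage. Colec12, a scavenger receptor with a collectin domain, rose by 0.60 (adjusted p = 0.00147 by DESeq2) and stayed called in 5 of 8 fits with 1 library removed (0.54, 0.53 and 0.52 without naïve 1, naïve 2 and DMM 3). The mannose-binding lectin genes Mbl1 and Mbl2 had at most 4 and 1 counts in a library.

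In the terminal pathway, which assembles the membrane attack complex, 2 of 7 genes were tested and none was called. C6 had a mean of 38.7 normalised counts in naïve and 49.8 in DMM libraries, and the log2 fold change was 0.35 with an SE of 0.28 (adjusted p = 0.419 by DESeq2). Hc (the C5 gene), C8a, C8b and C9 had at most 4, 5, 2 and 1 counts in a library. At a depth of 12479443 to 16548002 counts per library, differences in these genes were not detectable. C7 was also not tested, since independent filtering left it without an adjusted p. It had 3, 1, 14 and 31 counts in naïve and 2, 0, 4 and 0 in DMM libraries. Its log2 fold change was -3.39 with an SE of 1.15, and naïve 3 and naïve 4 held most of its counts.

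Among soluble regulators other than Serping1, Clu, which encodes clusterin, an inhibitor of the membrane attack complex, had a mean of 5876.0 ± 623.4 normalised counts in naïve and 4561.1 ± 1445.1 in DMM libraries (SD, n = 4 per group), and the log2 fold change was -0.37 with an SE of 0.21 (adjusted p = 0.204 by DESeq2). C4bp, the C4b-binding protein gene, was at -0.29, and neither was called. Cfi, which encodes a protease that cuts C3b and C4b, had at most 2 counts in a library.

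Among membrane regulators, Cd59b was called lower in DMM at -1.18 on the log2 scale (SE 0.32, adjusted p = 0.00279 by DESeq2), with 58.4 ± 13.8 normalised counts in naïve and 25.5 ± 9.41 in DMM libraries (SD, n = 4 each). Its paralog Cd59a, also an inhibitor of the membrane attack complex, was at -0.38 and Cd55, which speeds the decay of convertases, at 0.24, and neither was called. Estimated counts of Cd59b and Cd59a were not whole in any library, and sequence shared between them was not examined. Of the 9 receptor genes, all tested, 2 were called lower and none higher, beside 5.92% and 7.75% of all genes tested. Itgam fell by 0.68 (adjusted p = 0.000524 by DESeq2) and C5ar1, the C5a receptor, fell by 0.60 (adjusted p = 0.0158 by DESeq2) on the log2 scale, although C5ar1 stayed called in only 5 of 8 fits with 1 library removed (-0.53 without naïve 2, -0.53 without naïve 3 and -0.48 without DMM 1). Itgam was called in 7 of these 8 fits (-0.58 without DMM 1). The edgeR quasi-likelihood test and TMM factors left C5ar1 just under the fold threshold (-0.58 and -0.57), and total count factors put Itgam at -0.51 and C5ar1 at -0.44, also under it. Itgb2, the partner of Itgam in CR3, was at -0.58 (adjusted p = 0.00166 by DESeq2), just under 1.5-fold, and was called in 4 of the 8 fits with 1 library removed (-0.60, -0.68, -0.61 and -0.63 without naïve 3, naïve 4, DMM 3 and DMM 4).

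The members also differed in how much they varied among mice of a group. In DMM libraries the SD was 53.1% of the mean for C2, 45.5% for C1s1, 37.4% for Cfb, 35.3% for Serping1 and 32.4% for C4b. It was 16.9% for C3, 15.2% for C3ar1 and 9.57% for Cfp. In naïve libraries it lay between 13.8% (C3) and 27.9% (C2). DMM 3 was the highest DMM library for 6 of the 9 members and DMM 4 the lowest for 6, with 5 genes (C1ra, C1s1, C4b, Cfb and Serping1) in both sets. Naïve 4 was the highest naïve library for 7 members, all but C3 and Cfp.

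**Figure D5:**
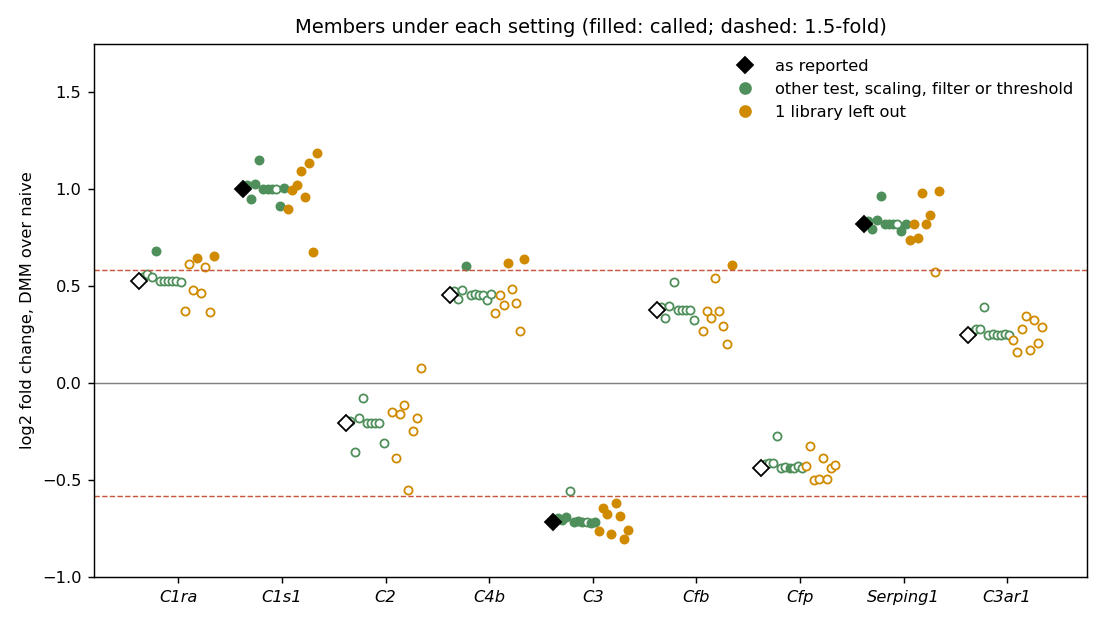
Log2 fold change of DMM over naïve (y axis) for each member as reported (black diamonds), under another test, scaling, filter or threshold (green) and with 1 library left out (orange), where filled points were called and dashed lines mark 1.5-fold. The value of C2 summed with Cfb and Gm20547 is not drawn. C1s1 lies between 0.68 and 1.19 and C3 between -0.80 and -0.56, while C1ra, C4b and Cfb cross the upper dashed line only under some settings.

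Among the cartilage markers, Col2a1, Acan, Sox9 and Comp were present in every library, while Matn1 had at most 11.97 normalised counts. The chondrocyte list took 0.239 to 0.392% of the counts in naïve and 0.639 to 1.20% in DMM libraries, with 5 of its 10 genes called higher and none lower, and the osteoblast and osteocyte list took 0.121 to 0.182% and 0.294 to 0.540%, with 7 of 8 called higher (two-sided exact permutation p = 0.0286 for each, 0.114 after adjustment over the 12 lists). The erythroid list took 1.12 to 1.85% in naïve and 0.616 to 1.30% in DMM libraries, with 7 of 8 genes called lower and overlapping ranges (two-sided exact permutation p = 0.0857, adjusted p = 0.171). No list passed 0.05 after adjustment. The smallest p this permutation test can give is 0.0286, so a few lists alone could not have passed after adjustment over 12. The part of these lists in the changes of the members was not tested.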

How the data were processed

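RNA-seq of medial knee cartilage from 4 naïve and 4 DMM mice was analysed from the table of estimated counts that the authors deposited, made with Kallisto and summed to genes with tximport, per the methods of the study. The submitters' processing notes name GRCh38, a human build, and the methods name GRCm38 with a later Ensembl release, so the build behind the counts is uncertain. The labels name an NEB low input kit and the methods a SMART-Seq kit, which was not resolved, and the strand setting is not given in the sources used here. Of the values, 39.0% were not whole (tolerance 1e-06), and counts were rounded.

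DESeq2 1.42.0 in R 4.3.3 (Wald test, size factors by median of ratios, no covariates, independent filtering at 0.05) was run over all genes, as the methods name. Calls needed an adjusted p of 0.05 or less and 1.5-fold or more. Normalised counts are counts divided by size factors. Marker shares were compared by two-sided exact permutation tests (SciPy 1.17.1) over 12 lists. Symbols were matched to 48855 identifiers holding 86.6% of counts. Named genes are the members, their copies, and in each role group the 3 other genes with the smallest adjusted p and a mean of at least 20. The result of 1 gene on the wider list is not reported here. Members and lists were chosen with earlier results of these data known. Nothing says that replicates share a litter or batch, and p-values set the difference between groups against the spread between these mice. In simulated data, DESeq2 recovered 158 of 200 genes changed 2-fold with 26 false calls, over 17046 genes. Totals were 12479443 to 16548002 counts.

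Alternatives were edgeR 4.0.16 (quasi-likelihood test), limma-voom 3.58.1, TMM or total count factors, other filters and thresholds, near copies summed, the replicate number as a block, and each library left out.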

Additional observations from a re-analysis of the deposited data

Results flagged for a closer look

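Among 88 groups of 4 values, 8 had an extreme library whose gap to the nearest other exceeded Dixon's 95% critical value for 4 values, where about 4.4 would be flagged by chance at 1 in 20. Among the complement genes, C2 was low in naïve 2 at 19.96 normalised counts (37.46 to 40.82 in the others), in the library where Gm20547, the gene model that shares its sequence, was high at 26.61 (0 to 2.268 in the others). C1rb, the near copy of C1ra, was at 5.669 in naïve 4 and 0 in the others. Fcnb was low in naïve 4 at 1071 (1350 to 1386 in the others), the library in which the macrophage list was also low, at 0.1916% of the counts (0.2223 to 0.2245% in the others). The erythroid list was high in DMM 3 at 1.3% (0.6162 to 0.6771% in the others), which was the DMM library with the highest C1ra, C1s1, C4b, C3, Cfb and Serping1. The skeletal muscle list was high in naïve 3 at 0.003206% and in DMM 1 at 0.009039%, at most 0.0009595% in the other libraries.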

How the results depend on the processing

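C1s1 and Serping1 stayed called, and C3 stayed called lower, under edgeR's test, limma-voom, TMM factors, both other filters and the replicate block. Against a 1.5-fold null no member was called (0 higher, 0 lower) and 0 genes of the wider list (0 higher, 0 lower), with 94 genes in all (80 higher, 14 lower). Without a fold threshold, 4010 genes passed (1989 lower) and 2 members were lower (C3 and Cfp). With total count factors, 489 genes were called lower, 4 members were called higher (C1ra, C1s1, C4b and Serping1) and 0 lower, the wider list had 7 higher and 3 lower, and C1qc turned to 0.10. With 1 library left out, 2 to 6 members were called (1 to 5 higher) and 7 to 13 genes of the wider list (1 to 6 higher), and C2 ranged from -0.55 to 0.080, C1qc from -0.14 to 0.060 and C1qa from -0.092 to 0.10 on the log2 scale. C2 summed with Cfb and Gm20547, a sum held mostly by Cfb, gave 0.32. The cause of these shifts was not tested. With the replicate number as a block, 2081 genes and 3 members were called, against 2429 and 3 without it. Same-numbered libraries correlated at 0.050, 0.058, -0.12 and 0.12 in their deviations from the group means, so the number is not read as a pairing. Genes with at most 10 counts in every library, such as C9 and Cfi, are limited by depth.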
